A study of Mus musculus with 16 samples.

Results

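The 10 genes described here, BC018473, AI506816, Abcb1b, Akr1e1, Gatm, Afdn, Arhgap26, Dapk1, Prelid2 and Fam183b, were chosen by their array signal: it differed widely between NOD and B6g7 thymocytes in every genotype and at every stage examined. They are 10 of the 19531 genes named on the arrays, and all 10 passed the filter on dim genes that left 10689 genes for testing. Because the strain difference chose them, it is given as a description, with no test. The stage and transgene comparisons within a strain took no part in the choice and were tested.

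Double-negative (DN) thymocytes of mice 4 weeks old were profiled on 16 arrays in 8 groups of 2. The groups were BDC/NOD and BDC/B6g7 DN4, NOD and B6g7 DN4, BDC/NOD and BDC/B6g7 DN2-3, and NOD and B6g7 DN2-3. NOD is an inbred strain that develops autoimmune diabetes, and B6g7 is C57BL/6 carrying the H2g7 MHC haplotype of NOD, so the strains share their MHC haplotype. BDC mice carry the BDC2.5 transgene, which encodes the T cell receptor (TCR) of a CD4 clone that can cause diabetes. The groups named by strain alone (non-Tg) have a polyclonal repertoire. Cells of all groups were depleted of CD4 and CD8 cells with complement and sorted as lineage-negative CD44- CD25- (DN4) or lineage-negative CD25+ (DN2-3). Each BDC group held 1 male and 1 female sample and all non-Tg samples were female. Whether the 2 samples of a group are separate animals is not stated, so a p-value here reflects only how far such samples differ, which may be technical.

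Early thymocytes pass from the CD25+ DN2-3 stages, where the TCR beta locus is rearranged and tested through the pre-TCR, to DN4, from which they go on to express CD4 and CD8. TCR transgenes such as BDC2.5 are known to be expressed earlier than rearranged endogenous chains. Inbred strains carry different alleles at many loci, and some of these loci set how much of a transcript a cell makes. A gene whose level separates strains whatever the genotype or stage can serve as a marker of the strain background.

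The members fell into genes of transport and metabolism, genes of kinase, cytoskeletal and adhesion proteins, and transcripts with no role stated here. Abcb1b encodes a P-glycoprotein, an efflux pump of the ATP-binding cassette (ABC) family that exports drugs and lipophilic compounds. Gatm encodes glycine amidinotransferase, the rate-limiting enzyme of creatine synthesis, Akr1e1 encodes an aldo-keto reductase, and Prelid2 belongs to the PRELI family, whose members move phospholipids between mitochondrial membranes. Dapk1 encodes a calmodulin-regulated kinase of cell death and autophagy. Arhgap26 encodes GRAF, and Afdn encodes afadin, an adaptor that ties nectin adhesion receptors and Rap GTPases to actin. Fam183b is protein-coding in the RefSeq gene table, and BC018473 and AI506816 are long non-coding RNAs there. The table places the members on chromosomes 2 (Gatm), 5 (Abcb1b and AI506816), 11 (BC018473 and Fam183b), 13 (Akr1e1 and Dapk1), 17 (Afdn) and 18 (Arhgap26 and Prelid2). The probe set of AI506816 lies in number order between those of Dusp12 and Fcgr4 on chromosome 1, whereas 97.1% of named probe sets share the chromosome of 1 or both neighbours in that order, so its place in the genome is uncertain here.

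RefSeq promoters (GRCm38.p6, the C57BL/6J reference, 250 bases before to 50 after the start) were found for 7 members. Those of Afdn and Dapk1 are shown because both genes fell with the transgene in DN2-3 cells of either strain, that of Abcb1b because it had the largest transgene difference of any member, in B6g7 DN4 cells, and that of Gatm because it fell most among the members in DN4 cells of BDC/NOD mice after Afdn. Capitals mark 4 motifs on either strand: TATAAA, the TATA box, then CCAAT, the CCAAT box, then GGGCGG, the GC box, and CAGGTG, an E box that E proteins can bind. The NOD alleles were not analysed here.
Afdn (chr17:13760291-13760590, plus strand): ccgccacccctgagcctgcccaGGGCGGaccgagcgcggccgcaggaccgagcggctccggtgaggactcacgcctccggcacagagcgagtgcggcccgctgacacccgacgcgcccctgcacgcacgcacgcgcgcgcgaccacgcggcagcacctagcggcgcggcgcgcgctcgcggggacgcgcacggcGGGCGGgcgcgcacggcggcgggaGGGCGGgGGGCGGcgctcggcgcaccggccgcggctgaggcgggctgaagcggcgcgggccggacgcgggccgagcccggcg
Dapk1 (chr13:60601961-60602260, plus strand): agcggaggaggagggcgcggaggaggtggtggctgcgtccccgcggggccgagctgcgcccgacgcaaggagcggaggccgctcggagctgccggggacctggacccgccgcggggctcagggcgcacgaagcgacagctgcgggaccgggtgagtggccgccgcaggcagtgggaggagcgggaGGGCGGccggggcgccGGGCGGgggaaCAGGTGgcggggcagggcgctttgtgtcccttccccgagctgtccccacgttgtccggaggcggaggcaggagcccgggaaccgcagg
Abcb1b (chr5:8797897-8798196, plus strand): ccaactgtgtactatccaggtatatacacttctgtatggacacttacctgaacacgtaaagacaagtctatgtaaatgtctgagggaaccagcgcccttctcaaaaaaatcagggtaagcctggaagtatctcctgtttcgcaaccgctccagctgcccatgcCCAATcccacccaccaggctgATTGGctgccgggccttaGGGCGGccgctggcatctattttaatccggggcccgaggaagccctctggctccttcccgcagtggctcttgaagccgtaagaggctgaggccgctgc
Gatm (chr2:122611228-122611527, minus strand): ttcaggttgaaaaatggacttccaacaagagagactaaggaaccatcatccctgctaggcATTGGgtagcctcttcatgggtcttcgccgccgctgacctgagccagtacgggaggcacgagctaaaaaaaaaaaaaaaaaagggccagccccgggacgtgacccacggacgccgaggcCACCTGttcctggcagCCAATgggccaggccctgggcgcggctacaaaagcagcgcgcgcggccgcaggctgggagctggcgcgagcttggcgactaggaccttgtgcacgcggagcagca
None of the 4 windows held TATAAA, which 13.6% of all 32851 RefSeq promoter windows of this length held. The Afdn window held 4 GC boxes, the Dapk1 window 2 and the Abcb1b window 1, a motif of 35.7% of all windows. CCAAT, present in 37.4% of windows, occurred 2 times each in Abcb1b and Gatm, and CAGGTG, present in 20.2%, occurred 1 time each in Dapk1 and Gatm. The Afdn and Dapk1 windows were rich in CG dinucleotides, with 62 and 38, Gatm had 22 and Abcb1b 12, against a median of 7 over all windows.

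The arrays had median intensities between 123.1 and 138.2. The NOD DN2-3 replicates differed most, with a median absolute log2 difference of 0.254, against 0.0735 to 0.13 in the other pairs. This value cannot tell which of them departs. Replicate 1 had the lowest ratio of intensity quartiles of any array, 6.82 against 9.32 in replicate 2. Results that use NOD DN2-3 replicate 1 are therefore also given without it where they differ. Signals up to 5.98 log2, the highest Y-linked signal on an array of female cells, were taken as not above background, and a difference from a group with no array above it is given as "at least", with signals raised to that level. Of 11 markers of DN thymocytes on the arrays, 10 were above background on all arrays. In BDC cells 8 of the 11 were called lower than in non-Tg cells in either strain at DN2-3, and 5 in NOD and 8 in B6g7 at DN4. Of all genes, 14.1% in NOD and 12.5% in B6g7 were called lower at DN2-3, and 14.8% and 29.2% at DN4. In B6g7 DN4 cells 1 marker was called higher. At DN4 5 were called lower than at DN2-3 in non-Tg NOD, 9 in non-Tg B6g7, 3 in BDC NOD and 9 in BDC B6g7 cells. In the same order 12.3%, 25%, 3.41% and 30.4% of all genes were called lower. In each of these but BDC NOD, 1 marker was called higher. Cells were sorted on CD44 and CD25, whose genes Cd44 and Il2ra are among the 11. Of 4 B cell markers 2 (Cd79a, Ms4a1) were at background on all arrays and 1 was above it on all. The corresponding numbers were 2 (Csf1r, Itgam) and 2 of 7 myeloid and dendritic markers, 3 (Ncr1, Klrb1c, Klrd1) and 1 of 5 NK and NKT markers, 1 (Krt5) and 4 of 6 thymic stroma markers, and 0 and 1 of 2 erythroid markers. The summed level of 5 gamma-delta T cell markers was 11.9 to 13.8 log2 on BDC arrays and 9.73 to 10.2 log2 on non-Tg arrays, and none of the 5 was at background on all arrays. Of the 4 tested, all 4 were called higher in BDC cells in B6g7 at both stages and in NOD DN4 cells, and 3 in NOD DN2-3 cells. The summed level of 5 NK and NKT markers, of which Nkg7 alone was bright enough to test, was 8.15 to 8.77 log2 in non-Tg DN4 cells and 10.3 to 11.8 log2 in the other groups. The summed level of 3 CD4 and CD8 genes was 10.1 to 11.6 log2 in DN4 cells other than BDC/B6g7, 8.93 to 8.97 log2 in BDC/B6g7 DN4 and 8.21 to 9.1 log2 in DN2-3 cells. The part of these markers in the transgene and stage results below was not tested. In sorted bulk cells, fewer cells of a type and less RNA per cell cannot be told apart.

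Of the 10 members, 4 were higher and 6 lower in NOD than in B6g7. Averaged over the 4 combinations of genotype and stage (contexts), BC018473 was higher by at least 4.21 log2 and Gatm by at least 2.23. Afdn was higher by 2.25 ± 0.06 and Prelid2 by 2.05 ± 0.05 (model SE, 2 arrays a group). Fam183b differed by -2.03 ± 0.08, Dapk1 by -2.13 ± 0.06, Arhgap26 by -2.22 ± 0.05, Abcb1b by -2.77 ± 0.08 and AI506816 by -2.85 ± 0.09. For Akr1e1, with no array above background in 3 of the 4 NOD groups, the average was -1.96 log2 with signals raised, a lower limit of its size. The arrays of NOD and B6g7 did not overlap in any of the 40 pairs of member and context. This is a likely outcome of choosing members by a large difference in each context. Among all tested genes, 77.8% did not overlap in BDC DN4, 69.7% in non-Tg DN4, 56.1% in BDC DN2-3 and 46.9% in non-Tg DN2-3 cells, and 9.77% did so in 1 direction in all 4. Taken over all 16 arrays whatever the genotype or stage, the 8 NOD and the 8 B6g7 arrays did not overlap for 9 of the 10 members, the exception being Afdn, while 1.8% of all tested genes met this. On the values as deposited, genes were ranked by the smallest of the 4 strain differences, among the 2891 with the same sign in all 4. The members held places 2 to 26. Fam183b at place 13 had 1.56 log2 and Apobec3 at place 14, no member, had 1.56, and Afdn at place 26 had 1.07 log2, the same to 2 decimals as Suclg2 at place 27. Genes that are no members stood among them, with Zfp979 at place 1 (4.24 log2) and Trim12a at place 3 (2.75 log2). The mean of Zfp979 in B6g7 was 3.31 log2 and that of Trim12a in NOD 4.97 log2, both below background. Their places, and those of members such as Akr1e1, thus rest partly on signals below background.

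**Figure D1:**
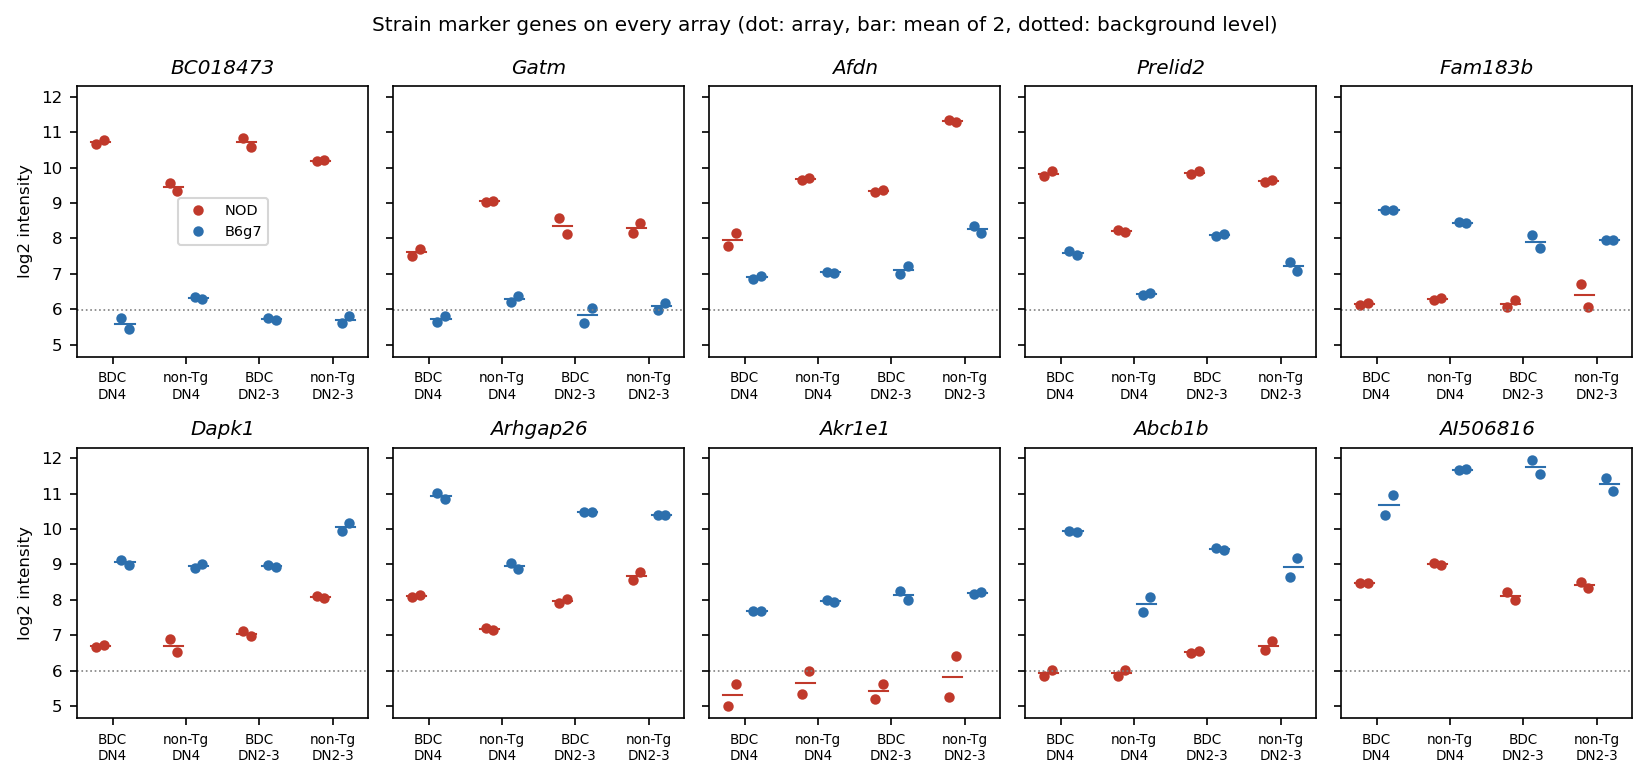
Log2 intensity (y axis) of each of the 10 genes on every array, in 4 contexts of genotype and stage (x axis). Dots are arrays, bars are means of 2 arrays, NOD is red and B6g7 blue, and the dotted line is the background level of 5.98 log2. NOD and B6g7 dots are apart in every context, while the distance between them changes most for Afdn, Abcb1b and BC018473.

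BC018473 was the member with the widest strain difference. Its NOD arrays read 10.66 and 10.77 log2 in BDC DN4, 9.57 and 9.34 in non-Tg DN4, 10.84 and 10.59 in BDC DN2-3, and 10.19 and 10.20 in non-Tg DN2-3 cells. Its B6g7 arrays read 5.75 and 5.43 log2, 6.35 and 6.30, 5.74 and 5.69, and 5.6 and 5.81 in the same order of contexts. The lowest NOD array lay 3.00 log2 above the highest B6g7 array, and of the B6g7 groups the non-Tg DN4 cells alone had arrays above background. AI506816 read 8.48 and 8.46 log2 in BDC/NOD DN4 cells against 10.41 and 10.96 in BDC/B6g7 DN4 cells. Its non-Tg DN4 arrays read 9.05 and 8.97 log2 in NOD and 11.68 and 11.69 in B6g7. At DN2-3 it read 8.22 and 8.0 log2 in BDC/NOD and 11.96 and 11.55 in BDC/B6g7 cells, and 8.49 and 8.33 in NOD and 11.45 and 11.08 in B6g7 cells. Its NOD arrays were above background, and the highest lay 1.35 log2 under the lowest B6g7 array. Fam183b stayed close to background in NOD, at 6.06 to 6.72 log2 with a median of 6.21, and read 7.72 to 8.80 log2 with a median of 8.27 in B6g7. Its strain difference in non-Tg DN2-3 cells, -1.56 log2, was -1.89 without NOD DN2-3 replicate 1.

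Abcb1b, the efflux pump gene, had its widest strain difference in BDC DN4 cells, with 5.86 and 6.01 log2 in NOD against 9.95 and 9.91 in B6g7, a 15.9-fold difference. In non-Tg DN4 cells it read 5.86 and 6.02 log2 in NOD and 7.67 and 8.09 in B6g7, the smallest difference at 3.85-fold. At DN2-3 the BDC arrays read 6.5 and 6.55 log2 in NOD against 9.45 and 9.41 in B6g7, and the non-Tg arrays 6.57 and 6.84 against 8.65 and 9.19. NOD levels spanned 0.99 log2 over the 8 arrays and B6g7 levels 2.28 log2, so most of the change in its strain difference lay in B6g7. Akr1e1, the aldo-keto reductase gene, was steady in B6g7, at 7.69 to 8.26 log2 with a median of 8.0 over 8 arrays. In NOD it read 5.0 to 6.41 log2 with a median of 5.49, and 1 of the 8 arrays, NOD DN2-3 replicate 2, was above background. Replicate 2 read higher than replicate 1 for Akr1e1 in each of the 4 NOD groups. With signals raised to background its strain difference was -1.71 log2 in BDC DN4, -1.98 in non-Tg DN4 and -2.16 in BDC DN2-3 cells, each a lower limit of its size. In non-Tg DN2-3 cells it was -2.37 ± 0.31 log2, and -1.79 without NOD DN2-3 replicate 1.

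The creatine synthesis gene Gatm read 7.51 and 7.70 log2 in BDC/NOD DN4 cells against 5.63 and 5.81 in BDC/B6g7 DN4 cells, a difference of at least 1.62. Its non-Tg DN4 arrays read 9.04 and 9.05 log2 in NOD and 6.21 and 6.38 in B6g7, the widest difference at 6.71-fold. At DN2-3 it read 8.57 and 8.11 log2 in BDC/NOD against 5.61 and 6.04 in BDC/B6g7 cells, and 8.16 and 8.43 in NOD against 5.98 and 6.18 in B6g7 cells. Gatm therefore ranged over 1.54 log2 among the NOD arrays while all B6g7 arrays lay between 5.61 and 6.38 log2, close to background. Prelid2, of the PRELI family, read 9.75 and 9.89 log2 in BDC/NOD DN4 and 8.24 and 8.18 in NOD DN4 cells, against 7.65 and 7.54 in BDC/B6g7 DN4 and 6.40 and 6.46 in B6g7 DN4 cells. At DN2-3 it read 9.82 and 9.89 log2 in BDC/NOD and 9.61 and 9.65 in NOD cells, against 8.06 and 8.13 in BDC/B6g7 and 7.33 and 7.09 in B6g7 cells. The lowest NOD array was only 0.05 log2 above the highest B6g7 array, since Prelid2 moved with stage and transgene in both strains.

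Afdn, the afadin gene, had a strain difference that ran from 2.10-fold in BDC DN4 to 8.35-fold in non-Tg DN2-3 cells. It read 7.78 and 8.15 log2 in BDC/NOD DN4 and 9.64 and 9.69 in NOD DN4 cells, against 6.85 and 6.94 in BDC/B6g7 DN4 and 7.05 and 7.02 in B6g7 DN4 cells. At DN2-3 it read 9.31 and 9.36 log2 in BDC/NOD and 11.35 and 11.28 in NOD cells, against 7.0 and 7.22 in BDC/B6g7 and 8.36 and 8.15 in B6g7 cells. Its lowest NOD arrays, in BDC DN4 cells, were below its highest B6g7 arrays, in non-Tg DN2-3 cells, which made Afdn the member that overlapped over all 16 arrays. Arhgap26 read 8.07 and 8.15 log2 in BDC/NOD DN4 and 7.20 and 7.15 in NOD DN4 cells, against 11.03 and 10.86 in BDC/B6g7 DN4 and 9.05 and 8.88 in B6g7 DN4 cells. At DN2-3 the values were 7.91 and 8.03 log2 in BDC/NOD and 8.57 and 8.78 in NOD cells, against 10.48 and 10.49 in BDC/B6g7 and 10.39 and 10.41 in B6g7 cells. Dapk1, the death-associated kinase gene, read 6.68 and 6.73 log2 in BDC/NOD DN4, 6.90 and 6.52 in NOD DN4, 7.11 and 6.99 in BDC/NOD DN2-3 and 8.11 and 8.04 in NOD DN2-3 cells. In B6g7 the same contexts gave 9.13 and 9.00, 8.90 and 9.01, 8.97 and 8.92, and 9.95 and 10.18 log2. In both strains the non-Tg DN2-3 cells had the highest Dapk1 level, and the strain difference kept within 3.73-fold and 5.15-fold.

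**Figure D2:**
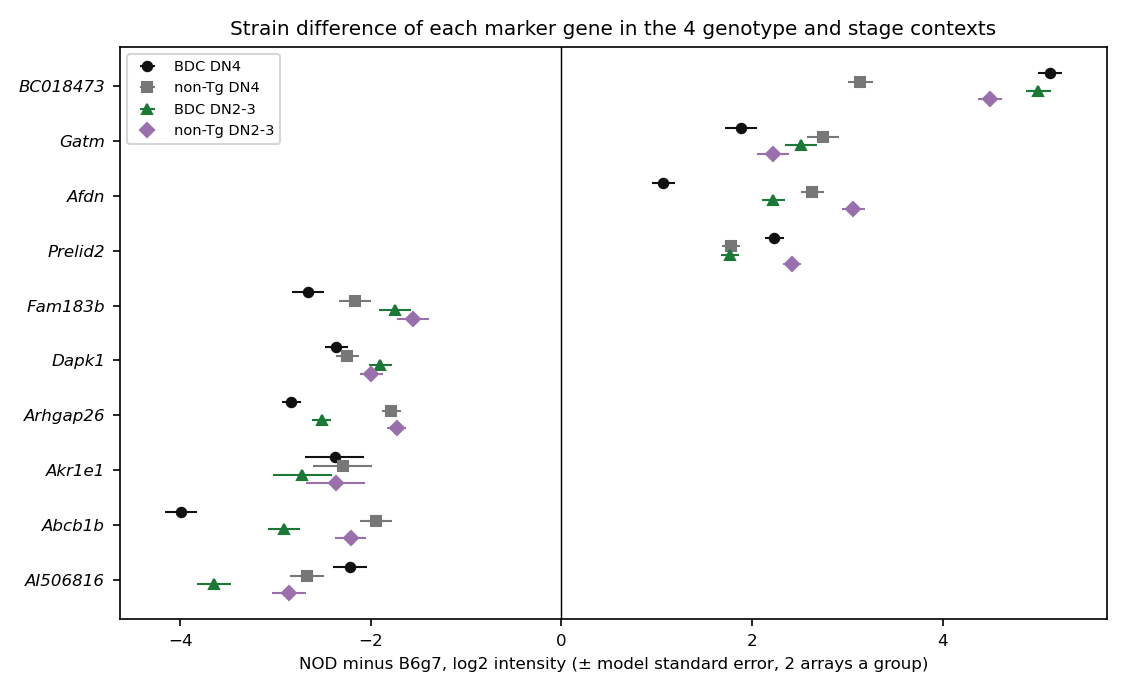
Strain difference of each gene (NOD minus B6g7, log2 intensity, x axis) in the 4 contexts, with points for the difference of the means of 2 arrays and bars for the model standard error. Points show the values as deposited. Dapk1 differs by similar amounts in the 4 contexts, whereas Abcb1b runs from -1.94 to -3.99 and Afdn from 1.07 to 3.06. For Akr1e1 no array of BDC/NOD DN4, NOD DN4 or BDC/NOD DN2-3 was above background, so its points cannot show whether its difference was steady.

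The transgene comparison asks how members differ between BDC and non-Tg cells of 1 strain and stage. In NOD DN4 cells BC018473, Arhgap26 and Prelid2 rose and AI506816, Gatm and Afdn fell. In B6g7 DN4 cells Abcb1b, Arhgap26 and Prelid2 rose and BC018473, AI506816 and Gatm fell. That is 6 of 10 members called in either strain (limma, adjusted p under 0.05 over all genes tested), where 25.3% of all tested genes were called in NOD (10.6% higher and 14.8% lower) and 59.3% in B6g7 (30.1% higher and 29.2% lower). In DN2-3 cells 4 members were called in each strain, where 35.6% of all genes were called in NOD (21.5% higher and 14.1% lower) and 29.4% in B6g7 (16.8% higher and 12.5% lower). Afdn and Dapk1 fell in both strains, with BC018473 higher and Arhgap26 lower in NOD, and Abcb1b and Prelid2 higher in B6g7. The share of members called was above that of all genes in NOD DN4 cells and close to it in the other 3 comparisons. Over the 4 comparisons 20 of 40 results were called, 9 higher and 11 lower in BDC, and the median difference of the members was between -0.26 and -0.02 log2 in each, against -0.03 to 0.06 for all genes. Of the 20, 16 held on leaving out each array in turn and 17 without the 4 male arrays.

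The largest transgene rises were those of Abcb1b and Arhgap26 in B6g7 DN4 cells. Abcb1b, at 9.95 and 9.91 log2 in BDC/B6g7 DN4 against 7.67 and 8.09 in B6g7 DN4 cells, was higher by 2.05 ± 0.17 (limma, adjusted p = 2.94e-07). Arhgap26 was higher in BDC by 0.94 ± 0.10 in NOD DN4 cells (limma, adjusted p = 2.52e-05) and by 1.98 ± 0.10 in B6g7 DN4 cells (adjusted p = 4.11e-09). In NOD DN2-3 cells Arhgap26 was lower in BDC, with a difference of -0.70 ± 0.10 (limma, adjusted p = 0.000237), whereas in B6g7 DN2-3 cells it differed by 0.08 ± 0.10 (adjusted p = 0.576). Abcb1b in NOD cells was near background at DN4, with 5.86 and 6.01 log2 in BDC/NOD against 5.86 and 6.02 in NOD. In DN2-3 cells of B6g7 Abcb1b was higher by 0.51 ± 0.17 (limma, adjusted p = 0.0347), a call lost without the first replicate of B6g7 DN2-3 (0.25, adjusted p = 0.342) or either replicate of BDC/B6g7 DN2-3 (0.49 without replicate 1 and 0.53 without replicate 2). Leaving out the 4 males ended it too.

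Prelid2 was higher in BDC cells by 1.62 ± 0.10 in NOD DN4 (limma, adjusted p = 9.52e-08), 1.16 ± 0.10 in B6g7 DN4 (adjusted p = 3.71e-07) and 0.88 ± 0.10 in B6g7 DN2-3 (adjusted p = 2.92e-05). In NOD DN2-3 cells it differed by 0.23 ± 0.10 (adjusted p = 0.08). BC018473 was higher in BDC/NOD than in NOD cells by 1.26 ± 0.13 at DN4 (limma, adjusted p = 1.64e-05) and by 0.52 ± 0.13 at DN2-3 (adjusted p = 0.00798), and the second call was lost without BDC/NOD DN2-3 replicate 1 (0.39, adjusted p = 0.093). In B6g7 DN4 cells it was lower in BDC, where it was at background, with a difference of -0.34 with signals raised, a lower limit of its size (limma, adjusted p = 0.000249 on the values as deposited). Gatm was lower in BDC/NOD than in NOD DN4 cells, with a difference of -1.44 ± 0.17 (limma, adjusted p = 5.13e-05). In B6g7 DN4 cells Gatm differed by -0.58 ± 0.17 (limma, adjusted p = 0.00924), a call lost with signals raised to background (-0.32, adjusted p = 0.0702), without B6g7 DN4 replicate 2 (-0.49) and without BDC/B6g7 DN4 replicate 1 (-0.49).

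Afdn had a transgene difference of -1.98 ± 0.12 in NOD DN2-3 (limma, adjusted p = 2.25e-07), -1.70 ± 0.12 in NOD DN4 (adjusted p = 5.46e-07) and -1.14 ± 0.12 in B6g7 DN2-3 cells (adjusted p = 2.24e-05). In B6g7 DN4 cells, where Afdn was already low, the difference was -0.14 ± 0.12 (adjusted p = 0.335). Dapk1 fell in both strains at DN2-3, with -1.02 ± 0.12 in NOD (limma, adjusted p = 6.35e-05) and -1.12 ± 0.12 in B6g7 (adjusted p = 2.57e-05). At DN4 its difference was -0.01 ± 0.12 in NOD and 0.11 ± 0.12 in B6g7 cells. AI506816 was lower in BDC DN4 cells, with -0.54 ± 0.18 in NOD (limma, adjusted p = 0.0391) and -1.0 ± 0.18 in B6g7 (adjusted p = 0.000306). The NOD call of AI506816 was lost without either replicate of BDC/NOD DN4 (-0.55 and -0.54), NOD DN4 (-0.50 and -0.58) or B6g7 DN4 (-0.54 each), and without the 4 male arrays (-0.55). Fam183b and Akr1e1 were called in no transgene comparison, with differences from -0.23 to 0.36 and from -0.42 to -0.06. The -0.23 of Fam183b, in NOD DN2-3 cells, became 0.10 without NOD DN2-3 replicate 1, and passed in neither case. Without NOD DN2-3 replicate 1, the difference of Akr1e1 between BDC/NOD and NOD DN2-3 cells was -0.43 log2 with signals raised to background, a lower limit of its size, since no BDC/NOD array was above it. On the values as deposited it passed the test without that array (-0.99, limma, adjusted p = 0.00826), and this rests on 1 NOD array at 6.41 log2.

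Stage was compared as DN4 against DN2-3 cells of the same strain and genotype. These comparisons share arrays with the transgene comparisons, so the values are given side by side and not combined. In non-Tg cells Abcb1b, Afdn, Arhgap26, Dapk1 and Prelid2 were lower at DN4 in both strains. To these NOD added BC018473 lower and AI506816 and Gatm higher, and B6g7 added BC018473 and Fam183b higher. That made 8 of 10 members called in NOD, where 38.6% of all genes were called (26.3% higher and 12.3% lower), and 7 of 10 in B6g7, where 42.8% were (17.8% higher and 25% lower). In BDC cells 3 members were called in NOD, Abcb1b, Gatm and Afdn, all lower at DN4, where 11.1% of all genes were called (7.67% higher and 3.41% lower). In BDC cells of B6g7 Abcb1b, Arhgap26 and Fam183b were higher and AI506816 and Prelid2 lower, 5 members where 50.8% of all genes were called (20.4% higher and 30.4% lower). The median stage difference of the members was -0.76 in non-Tg NOD and -0.51 in non-Tg B6g7 cells, against 0.10 and -0.04 for all genes, and -0.07 in BDC NOD and -0.12 in BDC B6g7 cells, against -0.02 and -0.05. Of 23 calls in 40 results, 7 higher and 16 lower, 17 held without the 4 males and 18 on leaving out each array in turn.

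In non-Tg cells the largest stage difference was that of Afdn in NOD, with -1.65 ± 0.12 (limma, adjusted p = 7.65e-07), against -1.21 ± 0.12 in B6g7 (adjusted p = 8.62e-06). Arhgap26 fell in both strains, with differences of -1.50 ± 0.10 in NOD (limma, adjusted p = 3.32e-07) and -1.44 ± 0.10 in B6g7 (adjusted p = 3.24e-07). Prelid2 had -1.42 ± 0.10 in NOD and -0.78 ± 0.10 in B6g7, Dapk1 -1.36 ± 0.12 and -1.11 ± 0.12, and Abcb1b -0.77 ± 0.17 and -1.04 ± 0.17, all called in both strains. BC018473 differed by -0.74 ± 0.13 in NOD (limma, adjusted p = 0.000655) and by at least 0.34 in the other direction in B6g7 (adjusted p = 0.00196 on the values as deposited). Gatm was higher at DN4 in NOD by 0.75 ± 0.17 (limma, adjusted p = 0.00388), while in B6g7, near background, it differed by 0.21 ± 0.17 (adjusted p = 0.317). AI506816 in NOD was higher by 0.60 ± 0.18 (limma, adjusted p = 0.0173), a call lost without NOD DN4 replicate 1 (0.56) or replicate 2 (0.64). Fam183b was higher at DN4 in B6g7 by 0.50 ± 0.17 (limma, adjusted p = 0.0303), lost on leaving out either replicate of B6g7 DN4 or of B6g7 DN2-3 (0.49 to 0.51) or the males. Without NOD DN2-3 replicate 1 the stage difference of Akr1e1 in non-Tg NOD was -0.74 as deposited (limma, adjusted p = 0.0288), against -0.17 ± 0.31 with it. With no NOD DN4 array above background, its lower limit was -0.43 with signals raised. That of Fam183b was 0.22, against -0.11 ± 0.17 with it, which passed in neither case.

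In BDC cells of NOD, Afdn was lower at DN4, with a difference of -1.37 ± 0.12 (limma, adjusted p = 1.35e-05), and this was the 1 call of the 3 that held on leaving out each array. Without BDC/NOD DN2-3 replicate 1, BDC/NOD DN4 replicate 1 or 2, or the males, 1 member was called in this comparison. Gatm had -0.74 ± 0.17 (limma, adjusted p = 0.0128), lost without BDC/NOD DN2-3 replicate 1 (-0.51), BDC/NOD DN4 replicate 1 (-0.65) or BDC/NOD DN4 replicate 2 (-0.83). Abcb1b had -0.59 ± 0.17 (limma, adjusted p = 0.0379), lost without any of the 4 arrays compared (-0.66 to -0.51) or any of the 4 BDC/B6g7 arrays, and with signals raised to background (-0.53). In BDC cells of B6g7, Fam183b was higher at DN4 by 0.90 ± 0.17 (limma, adjusted p = 0.000617), Abcb1b by 0.50 ± 0.17 (adjusted p = 0.0236) and Arhgap26 by 0.46 ± 0.10 (adjusted p = 0.00167). Prelid2 had -0.50 ± 0.10 (limma, adjusted p = 0.000779) and AI506816 -1.07 ± 0.18 (adjusted p = 0.000235). The Abcb1b call was lost without any of the 4 arrays compared (0.48 to 0.52), and without the 4 male arrays 2 calls were left. Those lost were Abcb1b (0.50), Arhgap26 (0.37) and AI506816 (-0.59, against -1.07 with them).

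**Figure D3:**
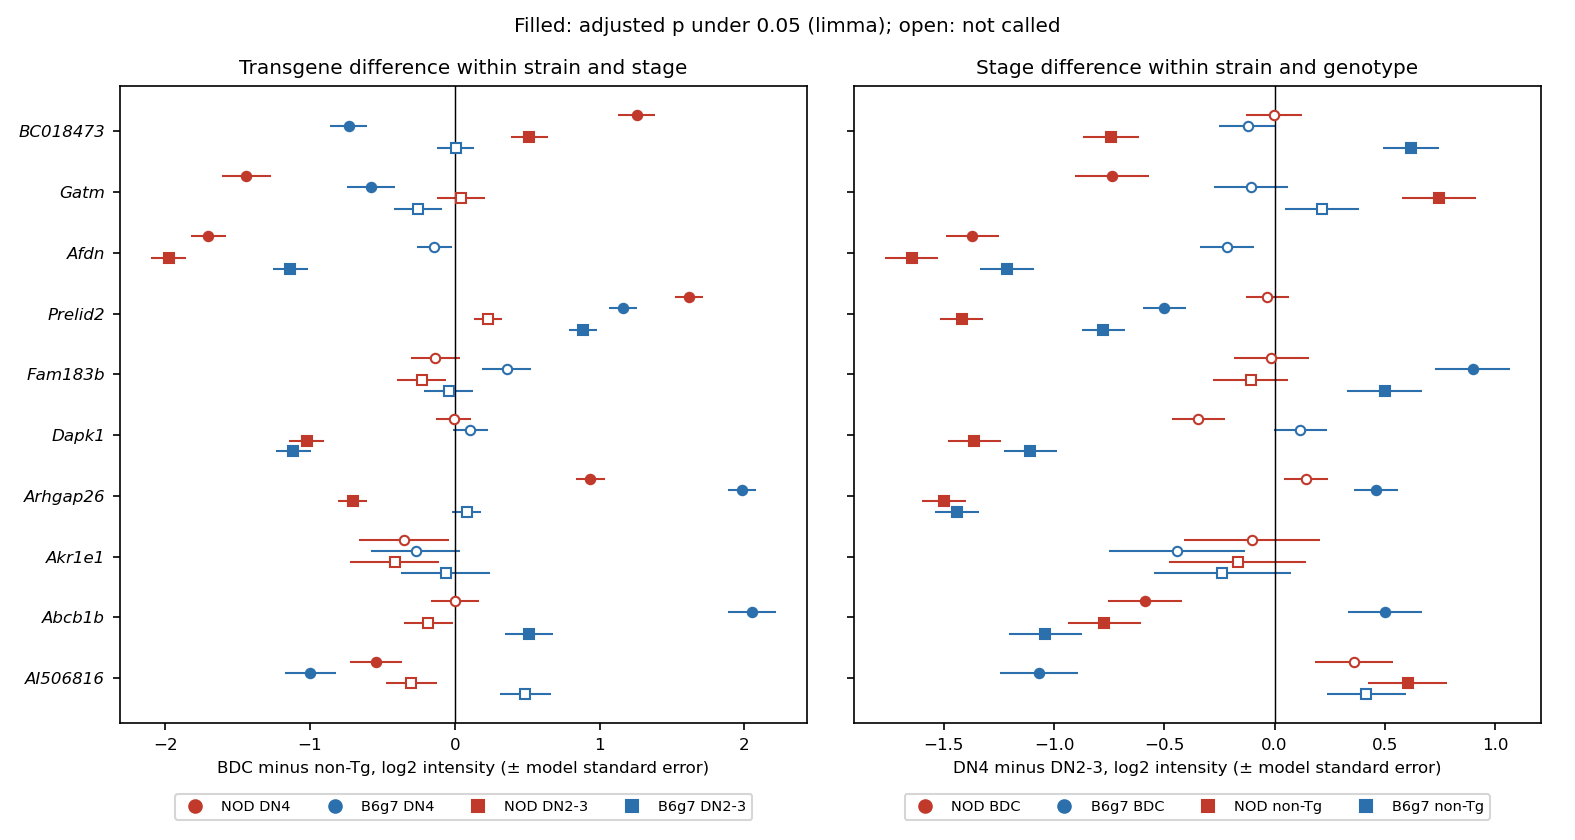
Transgene difference (left, BDC minus non-Tg) and stage difference (right, DN4 minus DN2-3) of each gene in log2 intensity, as points with the model standard error, NOD in red and B6g7 in blue, with filled points for adjusted p under 0.05. Abcb1b and Arhgap26 in B6g7 DN4 cells lie farthest to the right in the left panel, and Afdn in NOD lies farthest to the left in both panels.

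Whether the transgene difference of a member differed between DN4 and DN2-3 cells was tested as an interaction within each strain. In NOD, Arhgap26 (1.64 ± 0.14, limma, adjusted p = 5.82e-06), Prelid2 (1.39 ± 0.14), Dapk1 (1.02 ± 0.17) and BC018473 (0.74 ± 0.18) had a positive interaction and Gatm a negative one (-1.48 ± 0.24, adjusted p = 0.000572). In B6g7, Arhgap26 (1.90 ± 0.14, limma, adjusted p = 2.37e-07), Abcb1b (1.54 ± 0.24), Dapk1 (1.22 ± 0.17) and Afdn (1.00 ± 0.17) had a more positive transgene difference at DN4 than at DN2-3. AI506816 (-1.48 ± 0.25, limma, adjusted p = 0.000242) and BC018473 (-0.74 ± 0.18) had a more negative one, that of BC018473 being lost with signals raised to background (-0.34, adjusted p = 0.0572). The 5 calls in NOD compare with 33.4% of all genes called (12.9% higher and 20.5% lower) and the 6 in B6g7 with 54.3% (27.3% higher and 27% lower). All 11 calls held on leaving out each array in turn and without the 4 male arrays. Dapk1 and Arhgap26 were called in both strains. Both were lower at DN4 in non-Tg cells of each strain, while in BDC cells Arhgap26 had stage differences of 0.14 in NOD (not called) and 0.46 in B6g7 (called), and Dapk1 of -0.35 and 0.12 (neither called).

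Levels of members were compared with each other within a strain over its 8 arrays, as a description, since the arrays are pairs of 4 groups. In NOD, BC018473 and Prelid2 varied together (r = 0.944) and AI506816 ran opposite to Prelid2 (r = -0.910). In B6g7, Abcb1b and Arhgap26 varied together (r = 0.936), Afdn and Dapk1 did (r = 0.932), and BC018473, mostly at background there, ran opposite to Arhgap26 (r = -0.917). Afdn and Dapk1 had r = 0.848 in NOD, and Abcb1b and Arhgap26 r = 0.705. Prelid2 and BC018473, on the other hand, had r = -0.789 in B6g7.

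The genes next to the members in chromosome order, up to 5 tested genes on each side, took no part in the choice and were tested for the strain difference averaged over the 4 contexts. Of 92 such genes 48 were called, 30 higher and 18 lower in NOD, or 52.2%, where 41.6% of all tested genes were called (26.8% higher and 14.9% lower), and their median difference was 0.04 log2. For BC018473 6 of 10 neighbours were called, all higher in NOD, led by the adjoining sialyltransferase gene St6galnac2 (1.26 ± 0.06, limma, adjusted p = 6.12e-09) and the RNA gene Snhg16 (0.76 ± 0.11), with St6galnac1 on the other side at 0.32 ± 0.05. St6galnac2 was higher in NOD by 1.59 log2 in BDC DN4, 2.05 in BDC DN2-3 and 1.37 in non-Tg DN2-3 cells, and differed by 0.03 in non-Tg DN4 cells. For Fam183b 6 of 10 were called, 5 of them lower in NOD as it was, led by the zinc finger gene Zfp39 (-1.33 ± 0.06, limma, adjusted p = 2.14e-09), and the histone gene H2bu2 (-0.52 ± 0.07). The nearest neighbours of Fam183b were Lypd9, at 0.08 ± 0.08, and Olfr314, at -0.39 ± 0.07.

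Next to Abcb1b lay its paralogue Abcb1a, the other P-glycoprotein gene, at -0.62 ± 0.05 (limma, adjusted p = 9.54e-07), and Abcb4, a phospholipid transporter gene, at 0.50 ± 0.10 (adjusted p = 0.00117). By context Abcb1a differed between NOD and B6g7 by -1.59 log2 in BDC DN4, -0.43 in non-Tg DN4, -0.49 in BDC DN2-3 and 0.04 in non-Tg DN2-3 cells. Beyond Abcb1a lay Rundc3b at -0.67 ± 0.05, and 6 of the 10 neighbours of Abcb1b were called, 2 higher and 4 lower. Because Abcb1a and Abcb1b are close in sequence, their probe sets may share some signal, which was not tested. Next to Akr1e1, the reductase genes Akr1c13 (-0.59 ± 0.07) and Akr1c12 (-0.34 with signals raised to background) were lower in NOD on average. The value of Akr1c12 is a lower limit of its size, with 2 B6g7 and no NOD arrays above background. On the values as deposited these differences lay in BDC cells. Akr1c13 differed by -0.88 log2 in BDC DN4 and -1.53 in BDC DN2-3, but by 0.19 in non-Tg DN4 and -0.14 in non-Tg DN2-3 cells. Akr1c12 differed by -0.77, -2.11, -0.19 and 0.20 in the same order. The nearest gene on the other side was Klf6 at 0.14 ± 0.06. Idi1, of isoprenoid synthesis, was higher (0.56 ± 0.06), with 1.72 in BDC DN4 and 0.11 to 0.28 in the other contexts. Around Gatm, the nearest neighbours Slc28a2b (0.08 ± 0.07) and Spata5l1 (0.04 ± 0.06) were not called, while AA467197 (1.54 ± 0.09, limma, adjusted p = 3.23e-08) and Bloc1s6 (0.58 ± 0.07) were higher and Sqor, a sulfide oxidase gene with no NOD array above background, was lower (-0.46 with signals raised, a lower limit of its size).

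For Dapk1 7 of 10 neighbours were called, 5 higher and 2 lower. The nearest genes Tut7 (-0.17 ± 0.05) and Ctla2b (-0.33 with signals raised to background, a lower limit of its size) were lower. Further off, 6720489N17Rik (0.62 ± 0.07), Platr25 (1.23 ± 0.13) and the gluconeogenic gene Fbp1 (0.84 ± 0.25, and 0.49 with signals raised to background) were higher on average. By context Fbp1 ran from 0.03 log2 in BDC DN2-3 to 1.55 in non-Tg DN2-3 cells, as deposited. For Afdn 6 of 10 were called, 5 higher and 1 lower, among them the nearest gene Tcte2 (at least 0.36, with 3 NOD and no B6g7 arrays above background), and the other nearest gene was 1600012H06Rik at -0.10 ± 0.06. By context Tcte2 ran from -0.09 log2 in BDC DN4 to 1.84 in non-Tg DN2-3 cells, as deposited. Arhgap26 and Prelid2 lie close together on chromosome 18, with the glucocorticoid receptor gene Nr3c1 and Yipf5 between them among the tested genes, so they share neighbours. Nr3c1 differed by 0.09 ± 0.06 and Yipf5 by 0.30 ± 0.05, Ndfip1 on the other side of Arhgap26 by -0.08 ± 0.04 and Lars on the other side of Prelid2 by 0.38 ± 0.06. Thus Arhgap26, lower in NOD, and Prelid2, higher in NOD, lay on either side of genes with small strain differences, and 4 of 10 neighbours were called for each. For AI506816, placed on chromosome 5, 4 of 10 were called, with the nearest genes Srpk2 at 0.35 ± 0.04 and Pus7 at -0.03 ± 0.07 and Klhl7 at 0.62 ± 0.06. Of the 10 tested genes around its probe set in number order on chromosome 1, 3 were called, Tmco1 (0.20 ± 0.05), B4galt3 (-0.26 ± 0.06) and the TCR zeta chain gene Cd247 (-0.37 ± 0.06).

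**Figure D4:**
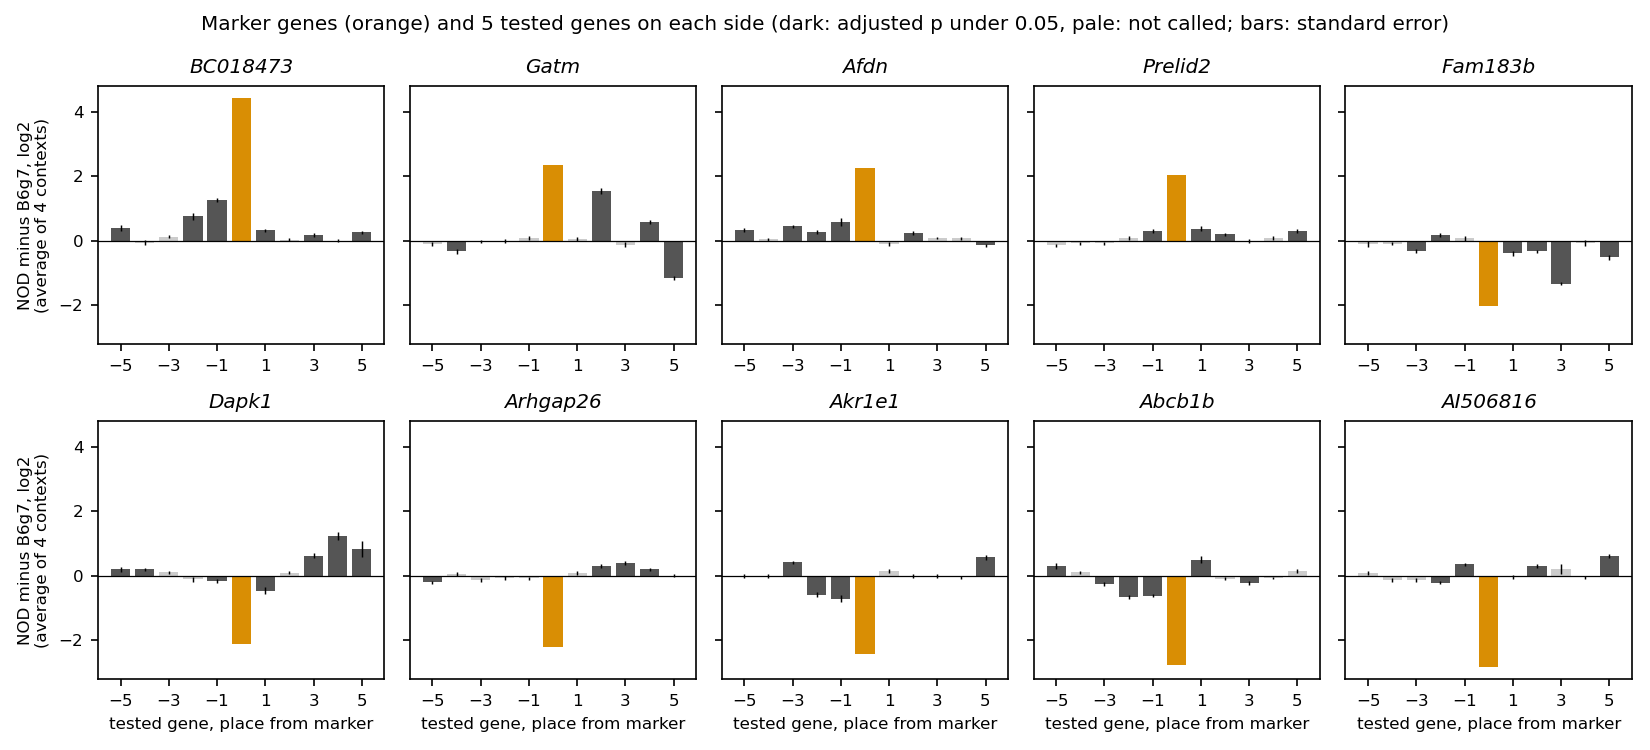
Strain difference averaged over the 4 contexts (NOD minus B6g7, log2, y axis) of each member (orange, place 0) and of the 5 tested genes on each side in chromosome order (x axis), with bars for the standard error and dark columns for adjusted p under 0.05. The members were chosen for large values of this difference, and of the neighbours St6galnac2, AA467197, Zfp39 and Platr25 differ by more than 1 log2, and the column of Sqor shows the value as deposited, with no NOD array above background.

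Of 53 tested genes from the families and pathways of the members, 32 were called for the average strain difference, 10 higher and 22 lower in NOD, or 60.4%, against 41.6% of all tested genes, with a median of -0.12 log2. Among ABC transporters 7 of 13 were called, 2 higher and 5 lower, and after Abcb1a and Abcb4 the largest were those of the lipid transporter gene Abca7 (-0.40 ± 0.07) and the drug efflux pump gene Abcg2 (0.39 ± 0.06). In the creatine pathway 1 of 3 was called, the creatine transporter gene Slc6a8 (0.17 ± 0.06), while Gamt, which completes creatine synthesis, differed by -0.10 ± 0.06. Of 5 aldo-keto reductase genes 3 were called, Akr1b10 (0.26 ± 0.04) besides Akr1c12 and Akr1c13. The list drawn up for Dapk1 held DAP kinase genes and genes of other death-associated proteins that are not kinases. Of its 5 tested genes 4 were called, all lower on average. The kinase genes among them were Dapk3 (-0.27 ± 0.06) and Stk17b (-0.26 ± 0.05). The others were Dapl1 (-0.36 with signals raised to background, since no NOD array was above it) and Dap (-0.29 ± 0.06). Unlike that of Dapk1, their differences were uneven over the contexts and widest in BDC DN4 cells. There they were -0.43 log2 for Dapk3, -0.64 for Stk17b, -0.73 for Dap and -1.95 for Dapl1, as deposited. In the same order they were 0.01, -0.03, -0.09 and -0.66 in non-Tg DN4 and -0.35, -0.10, 0.27 and -0.02 in non-Tg DN2-3 cells.

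The list drawn up around afadin, of nectin-like, Rap and cell junction genes, had 7 of 11 called, 3 higher and 4 lower. No nectin gene was among the 11, and not all of them encode proteins that bind afadin. The nectin-like receptor gene Pvr was lower (-1.22 ± 0.09, limma, adjusted p = 4.7e-07), and the afadin-binding protein gene Ssx2ip (0.91 ± 0.05) and the catenin genes Ctnnd1 (0.89 ± 0.10) and Ctnna1 (0.51 ± 0.06) were higher. In the PRELI family 1 of 3 was called, Prelid3b (0.17 ± 0.06). 

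The genes whose level ran most like that of each member over the 16 arrays are given by Pearson's r, which mostly follows the strain, since the arrays are pairs of 8 groups. BC018473 ran with Zfp979 (r = 0.967) and Ttll11 (0.954), AI506816 with Nup210l (0.965) and the retroviral restriction gene Apobec3 (0.962), and Akr1e1 with Apobec3 (0.972) and Mrpl24 (0.965). Abcb1b was matched by the kinase gene Mapkapk3 (0.988) and the B cell coreceptor gene Cd72 (0.977), the closest likeness of any member. Arhgap26 ran with Rhoq (0.971) and Pdgfrb (0.962), and Gatm with Ccnb1ip1 (0.966) and the carnitine acetyltransferase gene Crat (0.963). Afdn ran with the metallothionein gene Mt1 (0.954) and the phosphatase gene Ptprk (0.953), Dapk1 with Adgrl2 (0.941) and A630001G21Rik (0.929), and Prelid2 with Gas2l3 (0.975) and Hdhd3 (0.935). Fam183b ran with Trim12a (0.953) and with Zfp39 (0.949), which is also its neighbour on chromosome 11.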

How the data were processed

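RNA of 16 samples (8 groups of 2) was hybridised to Affymetrix Mouse Gene 1.0 ST arrays. The authors deposited linear intensity values from RMA in Affymetrix Power Tools, per the submitters' processing notes; versions are not given in the sources used here. This table held 25108 probe sets (values 5.82 to 21466), of which 21157 had 1 gene symbol, 1341 several and 2610 none. Log2 was taken without a pseudocount. The brightest probe set per gene was kept and tested where the highest group mean reached 7.05 log2 (132.9 linear); no member had another named probe set. Quantile normalization within RMA removes a shift shared by all genes of an array. Precision is limited by the number of arrays, and no detection calls were used. Whether the probes match the NOD alleles was not tested.

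Tests used limma 3.58.1 in R 4.3.3 (lmFit on 8 group means, eBayes, 8 residual and 5.06 prior degrees of freedom), two-sided, with Benjamini-Hochberg adjustment over 10689 genes. It was tested on simulated data. The members and gene lists were chosen with earlier results of these data known. Named genes were all members, called neighbours of at least 0.5 log2 and the nearest ones, up to 4 called genes per list, and the 2 genes most like each member. Names, chromosome order and promoters are from RefSeq (GRCm38.p6), which held 99.61% of the named probe sets' genes. Alternatives were other filters, probe sets, normalizations and models, and leaving out arrays; raising signals to background and the probe set order of AI506816 were added after seeing the data. Of the related genes, 1 list counted in the total is not reported here.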

Additional observations from a re-analysis of the deposited data

Results flagged for a closer look

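Transgene differences that differed between DN4 and DN2-3 cells by the interaction test (limma, adjusted p under 0.05) were, in NOD, those of Arhgap26 (1.64), Prelid2 (1.39), Dapk1 (1.02), BC018473 (0.74) and Gatm (-1.48), and, in B6g7, those of Arhgap26 (1.90), Abcb1b (1.54), Dapk1 (1.22), Afdn (1.00), BC018473 (-0.74 as deposited, -0.34 with signals raised to background, when it did not pass) and AI506816 (-1.48), all as log2 values.

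In other cases the 2 groups compared did not overlap in either strain, and the difference had opposite signs in the 2 strains. The arrays are not paired, and 2 arrays against 2 often do not overlap. Between strains, 46.9% to 77.8% of all tested genes did not overlap within a context. The share of all genes was not counted for the comparisons below. Whether the strains differ in these effects was not tested, since the strain difference chose the genes. Between BDC and non-Tg DN2-3 cells, AI506816 differed by -0.30 log2 in NOD and 0.49 in B6g7, Abcb1b by -0.18 and 0.51, and Arhgap26 by -0.70 and 0.082. Between BDC and non-Tg DN4 cells, BC018473 differed by 1.26 log2 in NOD and -0.73 in B6g7 (-0.34 with signals raised to background, a lower limit of its size), and Fam183b by -0.13 and 0.36. Between DN4 and DN2-3 cells, BC018473 differed by -0.74 log2 in non-Tg NOD and 0.62 in non-Tg B6g7 cells (at least 0.34, with signals raised to background). In BDC cells the stage difference of AI506816 was 0.36 log2 in NOD and -1.07 in B6g7, that of Abcb1b -0.59 and 0.50, and that of Dapk1 -0.35 and 0.12. In neither strain did AI506816 at DN2-3, Fam183b or Dapk1 pass its own test. Abcb1b in NOD and Arhgap26 in B6g7 at DN2-3, and AI506816 between stages in BDC NOD cells, did not pass theirs either. The differences of BC018473 in B6g7 and of Abcb1b in NOD DN4 lie near background.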

How the results depend on the processing

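The counts of called results, summed over the comparisons of a kind, stayed within 1.5 times their value under all alternatives run but 1: with 10 tested genes on each side 93 of 178 neighbours were called, against 48 of 92 with 5, as more genes were counted. With the replicate number as a block, there were 23 stage calls, 20 transgene calls and 11 interaction calls, the same counts as without it, with 47 neighbours and 32 related genes called and a median strain difference of 2.29 log2. The labels do not say that a number marks a shared animal or day, though in BDC groups replicate 1 is the male at both stages. The correlation of same-numbered deviations was 0.101, 0.585, 0.479 and 0.462 in the 4 stage comparisons, all positive, and -0.166 to 0.0404 in the transgene and -0.254 to 0.382 in the strain comparisons. Leaving out each array gave 21 to 26 stage calls, 18 to 23 transgene calls, 11 to 13 interaction calls, 44 to 55 neighbours, 27 to 38 related genes and a median strain difference of 2.25 to 2.33 log2. With only female arrays, so that a BDC group has 1 array assumed to vary like other groups, 17, 17 and 11 calls, 35 neighbours and 25 related genes passed. With sex as a term the counts were 22, 18, 11, 47 and 30. Signals near background and 2 arrays a group limit what can be seen of BC018473 and Gatm in B6g7 and of Akr1e1, Abcb1b and Fam183b in NOD.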
